A study of Mus musculus with 12 samples.

Results

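The genes described here make, conjugate and take up bile acids in the liver, together with the pair of nuclear receptors that hold this synthesis in check. The members were chosen by name, as Cyp7a1, Cyp8b1, Cyp27a1, Cyp7b1, Baat, Slc10a1, Nr0b2 and Nr1h4. They are 8 of the 28781 genes or design names on the array, read by 10 of its 41174 probes. Each member has 1 probe except Cyp7a1 and Baat, which have 2 each. Where a gene has 2 probes, the one of higher mean signal stands for it, and the other is called its second probe.

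The study hybridised liver RNA to 12 Agilent arrays in 1 colour, with a sample on each and 4 arrays per group. The groups were mice given an adeno-associated virus carrying human GR beta (AAV-hGRB), mice given the same kind of virus carrying GFP (AAV-GFP), and mice given PBS. All were 3-month-old male C57BL/6 mice with a GR knockout in the liver, controls included, and no group had intact GR. GR beta arises from the glucocorticoid receptor gene by alternative splicing and binds no glucocorticoid, and the study asked what it does to transcription where the liver's own receptor is missing. Not stated in the sources used here are the transgene's promoter, how the knockout was made, the vector dose and the time between injection and sampling. The labels number the samples within a group but state no separate animals, so p-values measure only the spread between these samples, which may be technical.

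Bile acids are made from cholesterol in hepatocytes. In the classic route CYP7A1 adds the first hydroxyl group and CYP8B1 directs the product towards cholic acid, and in the alternative route CYP27A1 and CYP7B1 act first. BAAT joins the finished acids to taurine or glycine, and NTCP, the product of Slc10a1, brings them back from portal blood. When bile acids accumulate they bind FXR (Nr1h4), which induces SHP (Nr0b2), a receptor without a DNA-binding domain that represses Cyp7a1 and Cyp8b1. Hepatic Cyp7a1 is also known to follow a daily rhythm.

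All 10 probes were well above background on all 12 arrays, and none was saturated. Each is 60 bases long, and 9 of them have a reading frame without a stop. The exception is the brighter Cyp7a1 probe, with stops in all 3 frames. The probes below are shown because the 2 probes of Cyp7a1 and the 2 of Baat are compared further on, and because a single array (AAV-GFP replicate 3) holds the lowest value of Slc10a1 and of Nr0b2. Coordinates are those of the array design on mouse build mm7, and sequences run 5′ to 3′ as the design lists them. The second Cyp7a1 probe covers chr4:6195632-6196238 (minus strand), a span of 607 genome bases for 60 probe bases, so it crosses an intron. The second Baat probe lies at chr4:49503875-49503934 (minus strand), whereas the design places the brighter one, which stands for Baat, on only 12 genome bases (chr4:49503287-49503298), and the files do not settle which of the 2 reads Baat better. The others are the Slc10a1 probe at chr12:78923269-78923328 (minus strand) and the Nr0b2 probe at chr4:132932212-132932271 (plus strand).
Cyp7a1 second probe: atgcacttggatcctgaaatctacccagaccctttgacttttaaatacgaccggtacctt
Baat second probe: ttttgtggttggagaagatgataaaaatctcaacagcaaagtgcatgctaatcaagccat
Slc10a1 probe: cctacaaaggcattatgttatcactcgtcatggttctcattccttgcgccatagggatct
Nr0b2 probe: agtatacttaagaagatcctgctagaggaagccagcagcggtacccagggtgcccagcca

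RefSeq promoter sequences (GRCm38.p6) were at hand for 5 of the 8 members, and Cyp7a1, Cyp7b1 and Baat are named only. The 250 bases before the start are shown for Cyp8b1 (chr9:121916306-121916555, minus strand) and Slc10a1 (chr12:80968706-80968955, minus strand), whose levels ran together over the arrays, and for their repressor's gene Nr0b2 (chr4:133553126-133553375, plus strand). Capitals mark matches to 3 motifs: TATAAA (the TATA box), CAAAGTCCA (bound by HNF4A) and CAAGGTCA or CAAGGCCA (bound by LRH-1). Motif letters were chosen with these promoters in view.
Cyp8b1 promoter: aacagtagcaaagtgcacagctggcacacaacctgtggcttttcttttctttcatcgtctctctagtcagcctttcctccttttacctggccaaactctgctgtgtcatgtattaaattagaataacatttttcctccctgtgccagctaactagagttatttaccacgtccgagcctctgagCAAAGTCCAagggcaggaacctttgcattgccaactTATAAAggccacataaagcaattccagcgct
Slc10a1 promoter: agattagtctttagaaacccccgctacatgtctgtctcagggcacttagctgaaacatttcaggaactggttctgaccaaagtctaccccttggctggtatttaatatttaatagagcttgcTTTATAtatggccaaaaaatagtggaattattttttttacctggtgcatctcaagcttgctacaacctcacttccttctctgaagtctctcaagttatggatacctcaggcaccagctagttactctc
Nr0b2 promoter: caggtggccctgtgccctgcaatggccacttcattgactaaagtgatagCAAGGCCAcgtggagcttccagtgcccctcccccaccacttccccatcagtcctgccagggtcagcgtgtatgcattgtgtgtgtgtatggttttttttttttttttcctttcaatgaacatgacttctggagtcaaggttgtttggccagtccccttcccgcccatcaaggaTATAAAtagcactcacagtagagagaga

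The Cyp8b1 promoter holds the HNF4A letters 67 to 59 bases before the start and a TATA box 31 to 26 bases before it. Nr0b2 has the LRH-1 letters at 201 to 194 bases and a TATA box at 28 to 23 bases. In the Slc10a1 promoter the TATA letters lie on the opposite strand, as TTTATA, 128 to 123 bases before the start. Counting both strands, the TATA letters occur in 12.4% of the 32851 promoters in the table, the LRH-1 letters in 3.28% and the HNF4A letters in 0.384%. AGGTCA, the core that FXR and its relatives bind, occurs in 14%, among them Nr1h4 and a second listed start of Slc10a1. None of the 6 member promoters holds this core as an inverted or a direct repeat with 1 base between the copies, arrangements present in 0.00609% and 0.0335% of all promoters. These matches are letters in a window and no measurement of binding.

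Levels are log2 intensities minus the 75th percentile of the same array, so they serve to compare arrays for 1 probe and not probes with each other. Changes come from a limma fit over 26592 probes, those well above background on 4 or more arrays, with Benjamini-Hochberg adjustment over all of them and a threshold of 0.05. No probe on the array passed in any of the 3 comparisons (0% called in each), which are AAV-hGRB set against AAV-GFP, the AAV-GFP group set against PBS, and AAV-hGRB set against PBS. In this order the lowest adjusted p was 0.31, 0.999 and 0.102. At an unadjusted p under 0.05 there were 892, 448 and 1553 probes, or 3.35%, 1.68% and 5.84%. In simulated data on the scale of the first comparison, 15% of probes changed 2-fold and 67.6% of those changed 4-fold were recovered. Each draw raised 100 probes per fold in AAV-hGRB, with normal noise drawn separately for each probe and array. Deviations shared by the probes of an array were not simulated, so these rates need not hold for the real arrays. The intensity at the 75th percentile ran between 209.3 and 597.7, lowest on AAV-GFP replicate 3, and 54.9% to 66.3% of probes were well above background, again lowest on that array. The brightest of the 4 Nr3c1 (GR) probes averaged 0.40 ± 0.16 in AAV-hGRB livers, 0.34 ± 0.20 in AAV-GFP livers and 0.37 ± 0.15 in PBS livers (SD, n = 4 each), and no source used here says whether it lies in the deleted part.

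None of the 8 members differed between groups beyond the spread of the arrays. In every comparison 0 of 8 passed the threshold, 0 of 8 had an unadjusted p under 0.05, and 0 of 8 had groups that did not overlap, against 2.98%, 0.94% and 4.59% of all probes for non-overlap in the same order of comparisons. What the data do show is a wide spread of several members between arrays. Across all groups Cyp8b1 spanned 7.86-fold over the 12 arrays, Slc10a1 7.27-fold and Cyp7a1 5.92-fold, while Baat spanned 1.68-fold. Inside single groups the widest log2 ranges were 2.21 for Cyp8b1 and 2.34 for Slc10a1, both in AAV-GFP. They were 1.72 for Cyp7a1 (in AAV-hGRB) and 0.6 for Baat (in AAV-GFP).

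**Figure D1:**
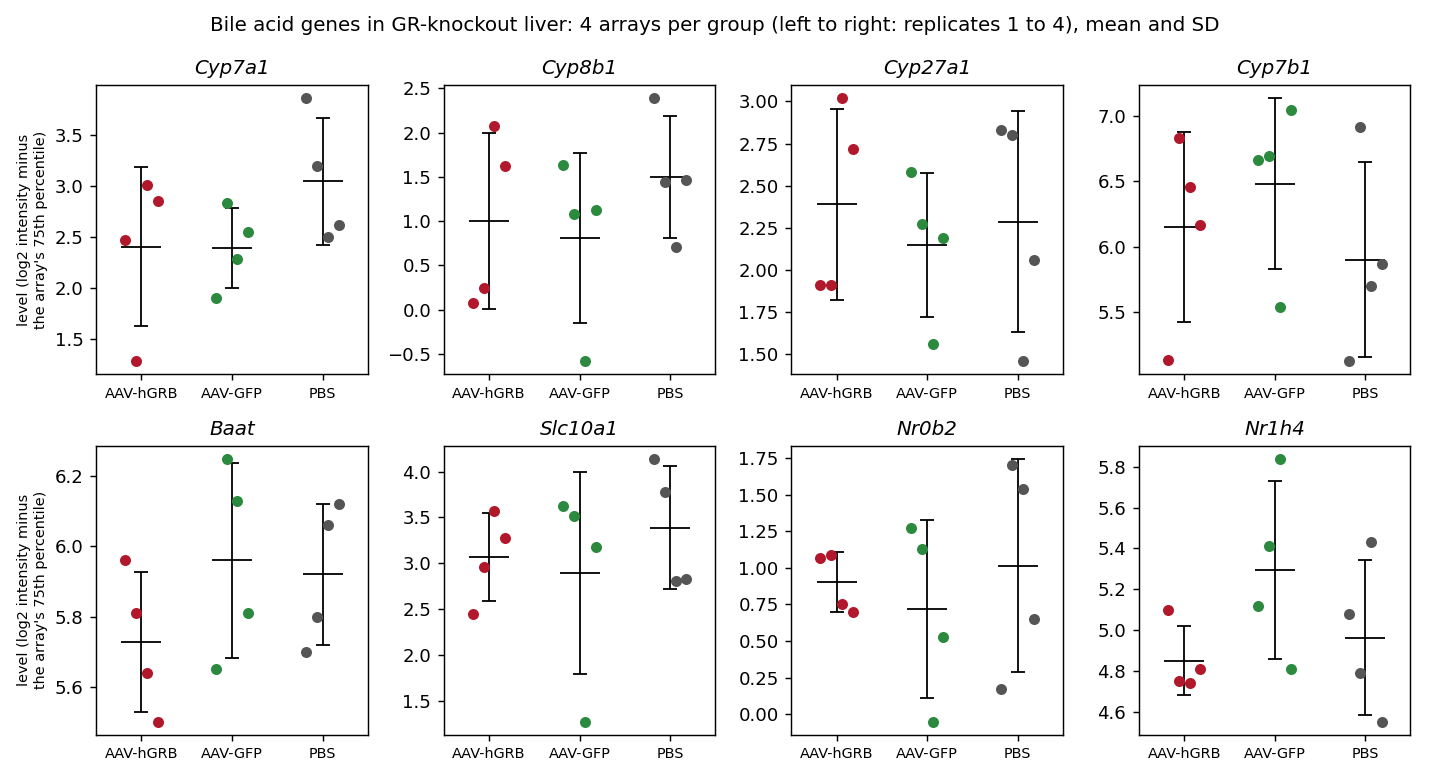
Level of each of the 8 genes on each array (log2 intensity less the array's 75th percentile), with 1 panel per gene, AAV-hGRB, AAV-GFP and PBS from left to right, points in replicate order, and bars for mean ± SD. The groups overlap in every panel, and AAV-GFP replicate 3 is the lowest point for Cyp8b1 (-0.58), Slc10a1 (1.27) and Nr0b2 (-0.05).

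Cyp7a1, the rate-limiting enzyme of the classic route, stood at 2.47, 1.29, 3.01 and 2.85 in AAV-hGRB replicates 1 to 4, at 1.91, 2.83, 2.29 and 2.55 in AAV-GFP, and at 3.86, 3.20, 2.50 and 2.62 in PBS. Both virus groups overlapped PBS, whose first replicate was the highest of all 12 arrays, and AAV-hGRB replicate 2 was the lowest. AAV-hGRB and AAV-GFP means were level, at 2.40 ± 0.78 and 2.39 ± 0.39 (SD, n = 4 each), a change of 0.01 with a 95% confidence interval of -0.86 to 0.88. AAV-hGRB lay below PBS (3.04 ± 0.62) by a change of -0.64 (SE 0.40, adjusted p = 0.917) and AAV-GFP by -0.65 (SE 0.40, adjusted p = 0.999). Without PBS replicate 1 these changes were -0.37 and -0.38, and without AAV-hGRB replicate 2 the first was -0.27. With single arrays left out they ran between -0.84 and -0.27 for AAV-hGRB and between -0.83 and -0.38 for AAV-GFP. These comparisons share a control group, so they are not independent of each other.

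The second Cyp7a1 probe, the one that crosses an intron, followed the first over the arrays (r = 0.84, 12 arrays). It read -0.55, -2.10, -0.15 and -0.27 in AAV-hGRB, -1.47, -1.10, -0.41 and -1.15 in AAV-GFP, and 0.68, -0.54, -0.56 and -0.04 in PBS. Again AAV-hGRB replicate 2 was lowest and PBS replicate 1 highest. On this probe the change of AAV-hGRB was 0.27 against AAV-GFP and -0.65 against PBS, and that of AAV-GFP against PBS was -0.92 (unadjusted p = 0.0551, adjusted p = 0.999). Of the 16 pairs of an AAV-GFP and a PBS array, AAV-GFP was the higher in 2 on this probe and in 3 on the brighter one.

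Where arrays of different groups shared a slide, the direction for Cyp7a1 varied. AAV-hGRB minus AAV-GFP was -0.36 on slide 5 and 0.72 on slide 6, and AAV-hGRB minus PBS was -0.15 and 0.51. AAV-GFP minus PBS was -1.29 on slide 1, 0.21 on slide 5 and -0.21 on slide 6. Each is a difference of 1 array against 1 array, with no error of its own. PBS replicate 1 and AAV-GFP replicate 4 were each alone on a slide. AAV-hGRB replicates 2 and 4 shared slide 3 with no other group, so these arrays enter no difference within slides. Of these 5 differences from PBS, 3 were negative.

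Cyp8b1, the 12α-hydroxylase that makes cholic acid, read 0.08, 0.24, 2.08 and 1.62 in AAV-hGRB, 1.63, 1.08, -0.58 and 1.12 in AAV-GFP, and 2.39, 1.44, 0.71 and 1.46 in PBS. The AAV-hGRB arrays fell apart into a low and a high pair, a gap wider than any difference between group means. The change of AAV-hGRB was 0.19 against AAV-GFP (interval -1.03 to 1.42) and -0.49 against PBS (-1.72 to 0.73), and that of AAV-GFP against PBS was -0.69 (-1.91 to 0.53). Intervals this wide admit changes of more than 2-fold. Without AAV-GFP replicate 3 the change against AAV-GFP turned to -0.27, and that of AAV-GFP against PBS was -0.22. Within slides AAV-hGRB minus AAV-GFP was -1.0 on slide 5 and 2.66 on slide 6, the slide that carries that replicate.

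Cyp27a1, the mitochondrial sterol hydroxylase, stood at 1.91, 1.91, 3.02 and 2.72 in AAV-hGRB, 2.58, 2.27, 1.56 and 2.19 in AAV-GFP, and 2.83, 2.80, 1.46 and 2.06 in PBS. Its high and low arrays were largely those of Cyp8b1, with AAV-hGRB replicates 3 and 4 above replicates 1 and 2. Group means of 2.39 ± 0.57, 2.15 ± 0.43 and 2.29 ± 0.66 (SD, n = 4 each) lay closer together than the arrays within each group. AAV-hGRB stood at a change of 0.24 against AAV-GFP (adjusted p = 0.998) and 0.10 against PBS (adjusted p = 0.977), and AAV-GFP at -0.14 against PBS (adjusted p = 0.999). Leaving out AAV-GFP replicate 3 or AAV-hGRB replicate 3 took the change against AAV-GFP to 0.04 and 0.03, and that of AAV-GFP against PBS was 0.06 without AAV-GFP replicate 3.

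Cyp7b1, the oxysterol 7α-hydroxylase of the alternative route, read 5.14, 6.83, 6.46 and 6.17 in AAV-hGRB, 6.66, 6.69, 5.54 and 7.04 in AAV-GFP, and 5.13, 6.91, 5.70 and 5.87 in PBS. It had the largest positive change of the members in AAV-GFP against PBS, 0.58 (SE 0.45, interval -0.40 to 1.57, adjusted p = 0.999). PBS replicate 1 and AAV-hGRB replicate 1 were the lowest of the 12 arrays, followed by AAV-GFP replicate 3, without which that change was 0.89. Without AAV-hGRB replicate 1 the change against AAV-GFP, -0.33 over all arrays, was 0.00, and without AAV-GFP replicate 3 it was -0.65.

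Baat, which conjugates bile acids, was the steadiest member. It read 5.96, 5.81, 5.64 and 5.50 in AAV-hGRB, 5.65, 6.25, 6.13 and 5.81 in AAV-GFP, and 5.70, 5.80, 6.06 and 6.12 in PBS. The change was -0.23 against AAV-GFP (interval -0.67 to 0.20) and 0.04 for AAV-GFP against PBS (-0.40 to 0.47), so a 2-fold change lies outside both intervals. Against PBS, AAV-hGRB stood at -0.20 (-0.63 to 0.24).

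The second Baat probe did not track the first (r = -0.38, 12 arrays). It gave 2.66, 2.73, 2.70 and 2.58 in AAV-hGRB, 2.55, 2.64, 2.23 and 2.37 in AAV-GFP, and 2.80, 2.44, 2.19 and 2.55 in PBS. Here AAV-hGRB was the higher in 15 of 16 pairs with AAV-GFP, with a change of 0.22 (SE 0.18, adjusted p = 0.998), whereas the brighter probe had it higher in 3 of 16. The direction for Baat against AAV-GFP therefore rests on which probe is read.

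Slc10a1, whose product NTCP takes up conjugated bile acids with sodium, stood at 2.45, 2.96, 3.57 and 3.28 in AAV-hGRB, 3.62, 3.52, 1.27 and 3.18 in AAV-GFP, and 4.14, 3.78, 2.81 and 2.83 in PBS. AAV-GFP replicate 3 was far under every other array, and the rest overlapped. Over all arrays the change of AAV-hGRB was 0.17 against AAV-GFP (adjusted p = 0.998) and -0.32 against PBS (adjusted p = 0.963), and that of AAV-GFP against PBS was -0.49 (adjusted p = 0.999). Leaving out that replicate turned the change against AAV-GFP to -0.37 and that of AAV-GFP against PBS to 0.05. On slide 5 AAV-hGRB minus AAV-GFP was -1.07, and on slide 6, with that replicate, 2.30.

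Nr0b2 (SHP), the repressor that FXR induces, read 1.07, 1.09, 0.75 and 0.70 in AAV-hGRB, 1.27, 1.13, -0.05 and 0.53 in AAV-GFP, and 0.17, 1.70, 1.54 and 0.65 in PBS. The AAV-hGRB arrays sat closest together, with an SD of 0.21 around 0.90, inside the range of the others (0.72 ± 0.61 in AAV-GFP livers and 1.02 ± 0.73 in PBS livers, SD, n = 4 each). The change of AAV-hGRB was 0.18 against AAV-GFP (interval -0.62 to 0.99) and -0.11 against PBS, and that of AAV-GFP against PBS was -0.30. Without AAV-GFP replicate 3, AAV-hGRB stood at -0.07 against AAV-GFP, and AAV-GFP at -0.04 against PBS.

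Nr1h4 (FXR), the bile acid receptor, stood at 5.10, 4.75, 4.74 and 4.81 in AAV-hGRB, 5.12, 5.41, 5.84 and 4.81 in AAV-GFP, and 5.08, 4.79, 5.43 and 4.55 in PBS. Its change of -0.45 against AAV-GFP had the lowest unadjusted limma p of any member in that comparison (SE 0.26, unadjusted p = 0.108, limma adjusted p = 0.998). AAV-hGRB was the higher in 2 of 16 pairs. The difference was -0.31 within slide 5 and -1.1 within slide 6, which carries AAV-GFP replicate 3, each being 1 array against 1 array. Within the same slides AAV-hGRB minus PBS was 0.55 and -0.69. The change against AAV-GFP was -0.26 without AAV-GFP replicate 3, the highest array, and between -0.61 and -0.26 with single replicates left out. AAV-GFP against PBS was 0.33 (-0.23 to 0.89), or 0.15 without that replicate, and AAV-hGRB against PBS -0.11 (-0.67 to 0.45).

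**Figure D2:**
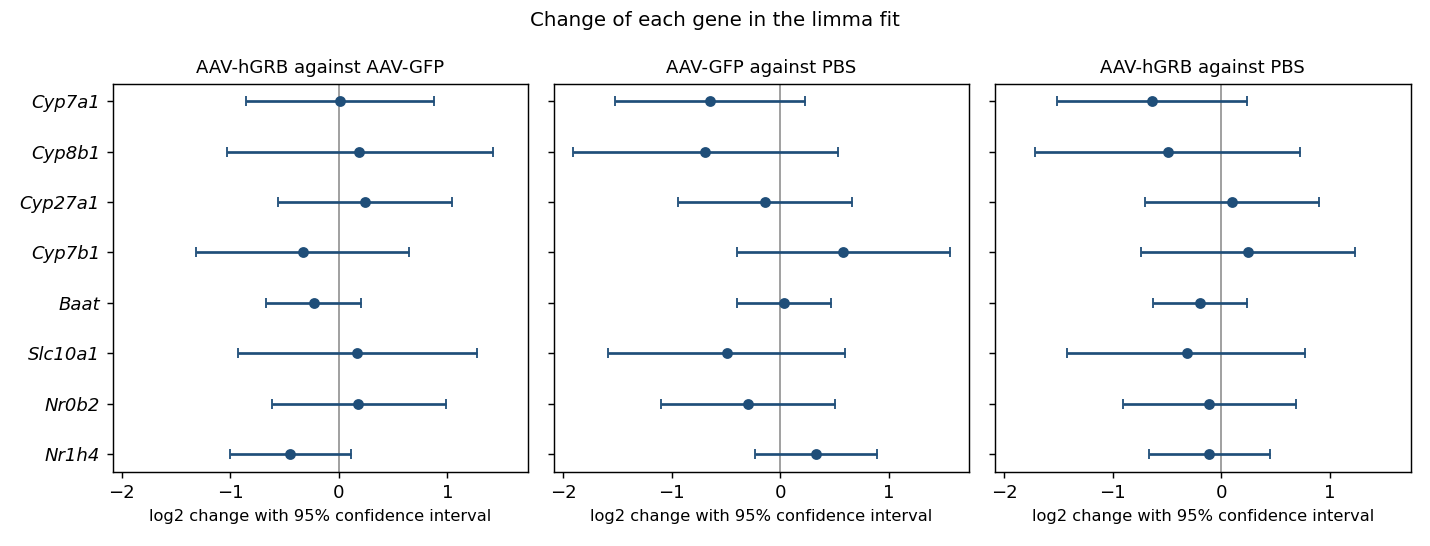
Log2 change of each gene in the limma fit, with its 95% confidence interval, for AAV-hGRB against AAV-GFP (left), the AAV-GFP group against PBS (middle) and AAV-hGRB against PBS (right). All intervals include 0, and they are widest for Cyp8b1 (SE 0.56) and narrowest for Baat (SE 0.20).

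Read as a set, 5 of 8 members were positive in AAV-hGRB against AAV-GFP, with a median change of 0.09 where that of all probes tested was -0.05. In AAV-GFP against PBS 3 of 8 were positive, with a median of -0.22 against 0.00 for all probes. In AAV-hGRB against PBS 2 of 8 were positive, with a median of -0.16 against -0.06. Leaving out AAV-GFP replicate 3, a setting chosen after seeing the data, left 1 of 8 positive in AAV-hGRB against AAV-GFP (median -0.22) and 4 of 8 in AAV-GFP against PBS (median 0.01). The first median was also negative without AAV-hGRB replicate 3 (-0.18) or replicate 4 (-0.08), with array weights (-0.22) and with normexp background correction (-0.04). As these are RNA levels of bulk liver, fewer cells of a type and less RNA per cell cannot be told apart.

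Over single arrays, Cyp8b1, Slc10a1 and Cyp27a1 ran together. Their Pearson r over the 12 arrays was 0.88 for Cyp8b1 with Slc10a1, 0.85 for Cyp8b1 with Cyp27a1 and 0.80 for Cyp27a1 with Slc10a1. After each group's mean was removed, r with Cyp8b1 was 0.87 for Slc10a1 and 0.90 for Cyp27a1, and without AAV-GFP replicate 3 it was 0.81 and 0.82. These values describe arrays that share scaling, intensity and slide, and carry no test. Cyp7a1 followed Cyp8b1 less closely, with r = 0.63 on its brighter probe (0.68 without AAV-GFP replicate 3) and 0.42 on its second probe (0.62). Nr1h4 ran the other way, with an r of -0.54 with Cyp8b1, or -0.21 without AAV-GFP replicate 3. For Baat the brighter probe gave -0.56 (-0.47 without that replicate) and the second probe 0.47 (0.24), so the probes disagree here too.

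**Figure D3:**
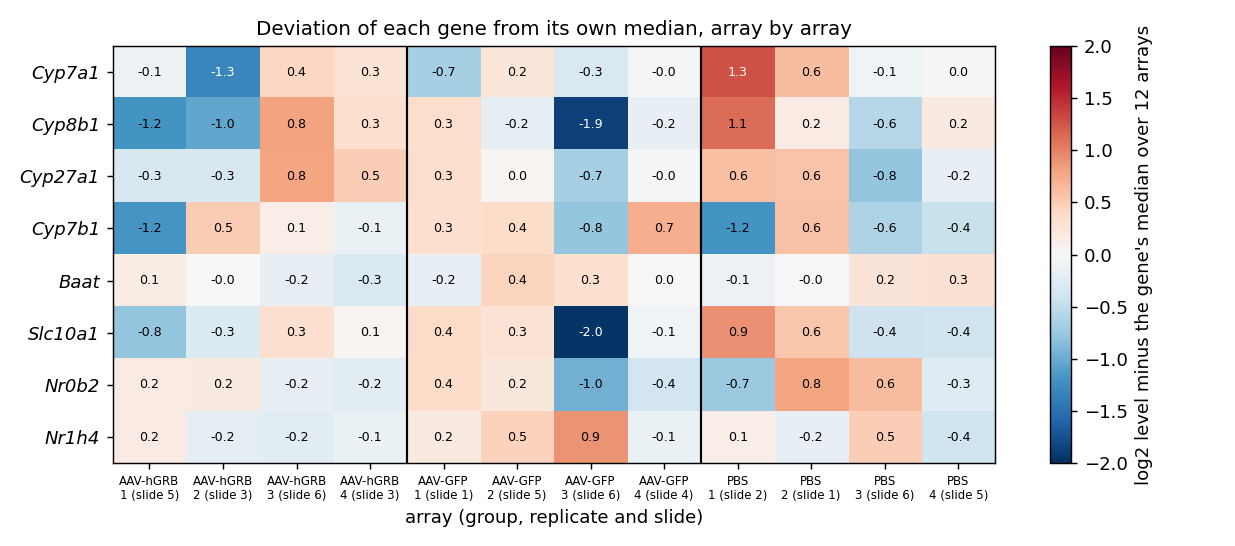
Deviation of each gene (rows) on each array (columns, with group, replicate and slide) from the gene's own median over the 12 arrays, in log2 units. AAV-GFP replicate 3 is low for Cyp8b1, Cyp27a1, Slc10a1 and Nr0b2 and the highest of all arrays for Nr1h4, and PBS replicate 1 is the highest for Cyp7a1, Cyp8b1 and Slc10a1 and the lowest for Cyp7b1.

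Closeness to 3 members was scored as Pearson r over the 12 arrays among 14114 genes. Genes close to Cyp7a1 included Fbxw9, an F-box protein gene (r = 0.89), and Soat2, which esterifies cholesterol (0.88). For Cyp8b1 the leading genes were Stxbp2, a syntaxin-binding protein (0.96), Tubgcp2, a part of the gamma-tubulin complex (0.96), and Tmbim1 (0.95), with Slc10a1 at rank 172 and Cyp27a1 at rank 390. Nr0b2 was most like Golph3l (0.84), then Ogn, an extracellular matrix proteoglycan gene (0.82), and Olfr598, an olfactory receptor gene (0.78) well above background on 4 arrays. Without AAV-GFP replicate 3, the r of Fbxw9, Stxbp2 and Golph3l was 0.90, 0.95 and 0.78. Such ranks are a description of 12 arrays and say nothing of shared control.

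The feedback circuit was read across arrays by setting receptor against repressor and repressor against targets, 3 relations in all, with two-sided permutation tests of 100000 resamples. Nr0b2 against Cyp7a1 gave r = -0.21 (p = 0.523, Benjamini-Hochberg adjusted 0.861) and Spearman rho = -0.10 (permutation p = 0.769, adjusted 0.855). Nr0b2 against Cyp8b1 gave r = 0.04 (permutation p = 0.893, adjusted 0.893) and rho = -0.07 (p = 0.837, adjusted 0.855). Nr1h4 against Nr0b2 gave r = -0.18 (permutation p = 0.574, adjusted 0.861) and rho = 0.06 (p = 0.855, adjusted 0.855). None of the 3 relations was detectable over 12 arrays.

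Each of these values moved with a few arrays. Without the 2 arrays farthest from the Nr0b2 median, AAV-GFP replicate 3 and PBS replicate 2, r was -0.64 for Cyp7a1 and -0.62 for Cyp8b1. For Nr1h4 with Nr0b2, r was 0.15 without AAV-GFP replicate 3 and PBS replicate 3. Without AAV-GFP replicate 3 alone, r was -0.37 for Nr0b2 with Cyp7a1, -0.47 for Nr0b2 with Cyp8b1 and 0.34 for Nr1h4 with Nr0b2. After the removal of slide means, over the 10 arrays on shared slides, r was 0.08 for Nr0b2 with Cyp7a1, 0.17 for Nr0b2 with Cyp8b1 and -0.15 for Nr1h4 with Nr0b2. With group means removed it was -0.36, -0.04 and -0.09.

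**Figure D4:**
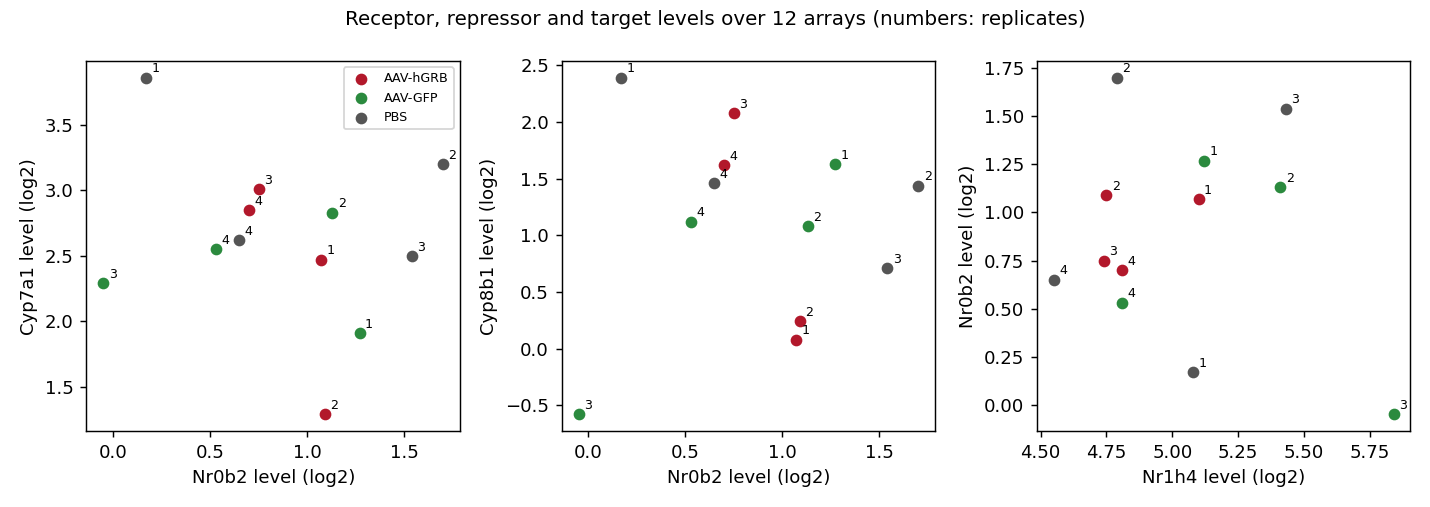
Level of Cyp7a1 against Nr0b2 (left), Cyp8b1 against Nr0b2 (middle) and Nr0b2 against Nr1h4 (right) on the 12 arrays, in log2 intensity less the array's 75th percentile, with numbers for replicates. AAV-GFP replicate 3 has the lowest Nr0b2 (-0.05) in each panel, with PBS replicate 1 next (0.17), and r is -0.21, 0.04 and -0.18.

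Other genes of the pathway were counted from 3 lists. Of 14 further synthesis and conjugation genes, 0 passed in any comparison, against 0% of all probes. In AAV-hGRB against AAV-GFP 4 were positive and 10 negative (median -0.23, where all probes had -0.05). In AAV-GFP against PBS 8 were positive and 6 negative (median 0.13), and in AAV-hGRB against PBS 4 and 10 (median -0.10). Without AAV-GFP replicate 3 the counts were 1 and 13 (median -0.30) in the first comparison and 11 and 3 (0.18) in the second. Hsd3b7, which isomerises the sterol ring, averaged 7.42 ± 0.21 in AAV-hGRB livers, 7.77 ± 0.28 in AAV-GFP livers and 7.39 ± 0.39 in PBS livers (SD, n = 4 each). The reductase gene Akr1d1 had changes of 0.30, -0.41 and -0.10 in the same order of comparisons, and Slc27a5, which activates bile acids with coenzyme A, -0.23, -0.14 and -0.37. Cyp39a1, an oxysterol hydroxylase, stood at 0.25, -0.61 and -0.36, and Cyp2c70, which makes the muricholic acids of mice, at -0.11, 0.38 and 0.26. Most of these values moved without AAV-GFP replicate 3. In AAV-hGRB against AAV-GFP they were then -0.21 for Hsd3b7, -0.03 for Akr1d1, -0.43 for Slc27a5, -0.35 for Cyp39a1 and -0.41 for Cyp2c70. In AAV-GFP against PBS they were 0.25, -0.07, 0.06, -0.01 and 0.67.

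Of 13 bile acid and bile lipid transporters, 12 were tested and 0 passed, and the basolateral exporter subunit gene Slc51a was too dim. In AAV-hGRB against AAV-GFP 3 were positive and 9 negative (median -0.21), in AAV-GFP against PBS 9 and 3 (0.24), and in AAV-hGRB against PBS 7 and 5 (0.09). Without AAV-GFP replicate 3 they were 2 and 10 (-0.16) in the first and 7 and 5 (0.15) in the second. Slc51b, the partner of Slc51a and a known FXR target, read -1.05, -1.99, -2.85 and -2.12 in AAV-hGRB, -1.10, -1.81, 0.16 and -1.27 in AAV-GFP, and -2.26, -1.09, -1.39 and -0.71 in PBS. Its change of -1.0 against AAV-GFP had an unadjusted p of 0.0579 and an adjusted p of 0.998. The highest array was again AAV-GFP replicate 3, and without it the difference was -0.61. The bile salt export pump Abcb11 read 7.89, 7.84, 7.23 and 7.42 in AAV-hGRB, 8.10, 7.73, 8.53 and 7.95 in AAV-GFP, and 6.34, 7.77, 7.61 and 7.86 in PBS. That is a change of -0.48 against AAV-GFP and of 0.69 for AAV-GFP against PBS (unadjusted p = 0.0606, adjusted p = 0.999), or -0.33 and 0.54 without AAV-GFP replicate 3. PBS replicate 1, at 6.34, was its lowest array and pulled the PBS mean down, which enlarged the change of AAV-GFP against PBS. Abcb4, which exports phospholipid into bile, had changes of -0.35, 0.53 and 0.17 in the order of comparisons given above. The efflux pumps Abcc3 and Abcc4 had -0.01, 0.03 and 0.02, and 0.56, -0.80 and -0.24. When AAV-GFP replicate 3 was left out, the first pair of values was -0.19 and 0.36 for Abcb4, -0.13 and 0.14 for Abcc3, and 0.38 and -0.62 for Abcc4. The uptake carrier Slco1b2 was the 1 gene of the 3 lists with an unadjusted p under 0.05, at 0.40 in AAV-GFP against PBS (unadjusted limma p of 0.0455, limma adjusted p = 0.999).

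Of 15 receptors and regulators, 14 were tested and 0 passed, with Gpbar1, the membrane bile acid receptor gene, too dim. In the same order of comparisons 5, 9 and 7 were positive, with medians of -0.13, 0.06 and 0.01, and without AAV-GFP replicate 3 the first pair of medians was -0.11 and -0.01. SHP's partner LRH-1 (Nr5a2) had changes of 0.01, 0.39 and 0.40, and Hnf4a, an activator of Cyp7a1 and Cyp8b1, 0.03, 0.03 and 0.06. FXR's dimer partner Rxra had -0.19, 0.13 and -0.07. Fgfr4 and Klb, which together receive the gut signal FGF15, had -0.29, -0.10 and -0.39, and -0.07, -0.12 and -0.19. Ppargc1a, a coactivator, had 0.47, 0.03 and 0.50, and Fgf15 itself, a gene of the ileum well above background on 7 of 12 arrays, -0.35, 0.15 and -0.21. With that replicate left out the first pair of values was 0.24 and 0.15 for Nr5a2, 0.07 and -0.01 for Hnf4a, and -0.06 and -0.01 for Rxra. For Fgfr4 it was -0.17 and -0.22, for Klb -0.37 and 0.18, for Ppargc1a 0.57 and -0.07, and for Fgf15 -0.27 and 0.07.

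**Figure D5:**
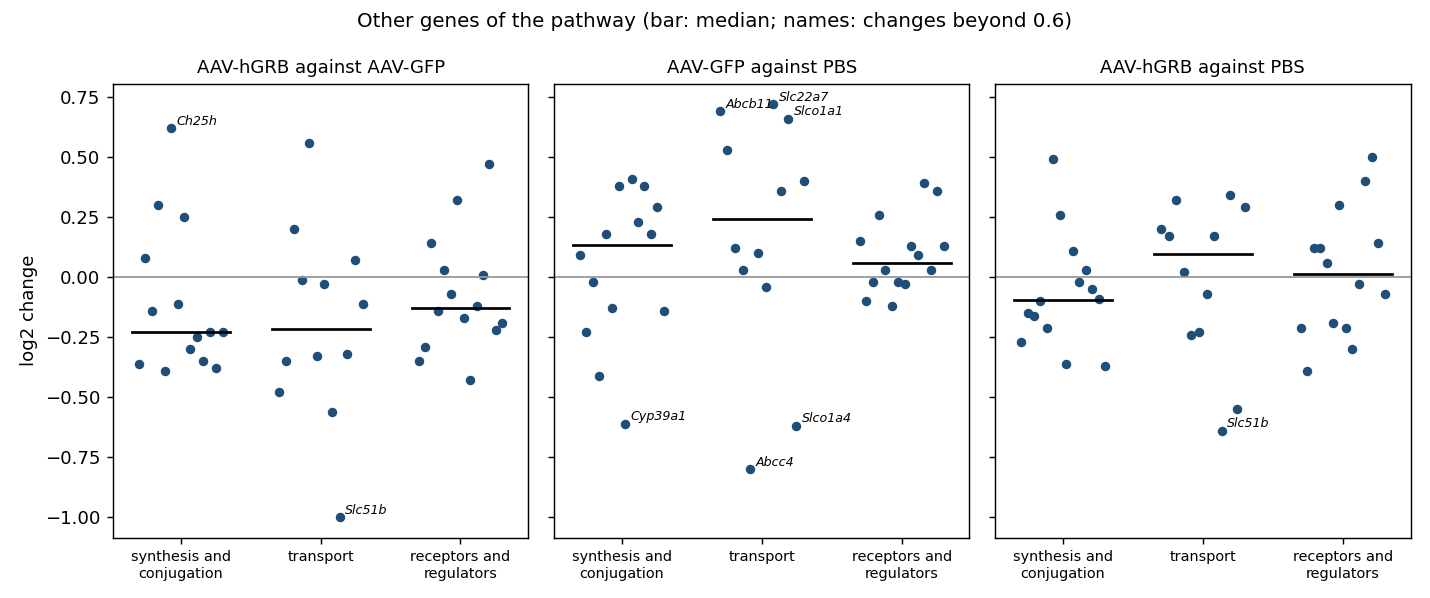
Log2 change of each further pathway gene (points) in the 3 comparisons, by list, with a bar at the median and names where a change is beyond 0.6. Most points lie within 0.5 of 0, and Slc51b at -1.0 in AAV-hGRB against AAV-GFP is the farthest out.

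Markers of the cells in the tissue were read beside these values. Of 7 hepatocyte markers 6 were tested, and their mean level was 6.65 ± 0.07 in AAV-hGRB livers, 6.87 ± 0.10 in AAV-GFP livers and 6.78 ± 0.25 in PBS livers (SD, n = 4 each), with Alb at 10.53 ± 0.27, 10.71 ± 0.33 and 10.52 ± 0.30. Among them Tat, the tyrosine aminotransferase gene, read 7.25, 6.93, 6.26 and 6.65 in AAV-hGRB, 7.38, 7.30, 7.59 and 7.81 in AAV-GFP, and 7.09, 7.28, 7.02 and 7.52 in PBS. AAV-hGRB and AAV-GFP did not overlap for Tat, with a change of -0.75 (unadjusted limma p of 0.00752, limma adjusted p = 0.998). Tat was not alone in this, as 2.98% of all probes did not overlap in that comparison. The same held for the markers Muc1 and Cd3g and for Slc27a2 and Acot12 of the synthesis and conjugation list. Of 8 bile duct markers 7 were tested, and their mean ranged between -0.63 and -0.36 in AAV-hGRB, -0.80 and 0.39 in AAV-GFP, and -0.57 and -0.21 in PBS. All 7 Kupffer cell markers were positive in each comparison (medians 0.28, 0.20 and 0.57) with 0 past the threshold. When AAV-GFP replicate 3 was left out, 6 of 7 were positive in the first comparison (median 0.24) and in the second (0.48). Their mean ranged between 2.38 and 3.53 in AAV-hGRB, 2.34 and 3.14 in AAV-GFP, and 1.53 and 2.99 in PBS. The lowest Kupffer cell mean was on PBS replicate 1, the array of highest Cyp7a1, Cyp8b1 and Slc10a1. Of 7 T and NK cell markers 6 were tested, with mean levels of -2.09 ± 0.30, -2.48 ± 0.25 and -2.32 ± 0.32 in the same order of groups. Other markers with an unadjusted limma p under 0.05 were Muc1, Gzma and Cd3g, with limma adjusted p of 0.842 or more. Muc1 stood at -0.94 for AAV-hGRB against AAV-GFP and at -0.92 against PBS. Gzma, well above background on only 9 arrays, stood at 1.52 against AAV-GFP, and Cd3g at 0.53. Their lists were mixed in sign. For AAV-hGRB, bile duct markers were 2 positive and 5 negative against AAV-GFP, and 3 and 4 against PBS. T and NK cell markers were 4 positive and 2 negative against AAV-GFP. Tat, Muc1, Gzma, Cd3g, Slc27a2 and Acot12 are named here after their values were seen. The part of cell composition in the members' values was not tested.

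The clock output gene Dbp, whose RNA swings over the day, spread widely within groups. It read 5.73, 4.41, 6.19 and 4.86 in AAV-hGRB, 5.86, 7.65, 7.14 and 4.95 in AAV-GFP, and 6.85, 6.08, 6.83 and 3.59 in PBS. Of 12 clock genes 11 were tested and 0 passed, with medians of -0.14, 0.11 and -0.21, the first pair being -0.08 and -0.06 without AAV-GFP replicate 3. Dbp was not picked in advance among them, and the spread differed by gene. In AAV-hGRB, AAV-GFP and PBS the SD was 0.81, 1.22 and 1.54 for Dbp. It was 0.79, 1.57 and 1.29 for Per2, and 0.18, 0.33 and 0.23 for Clock. The labels do not give the hour of sampling, and its part in the spread of Cyp7a1 and the other members was not tested.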

How the data were processed

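Total liver RNA of 12 samples was labelled with Cy3, per the labels' protocols, and the deposited files give each spot's linear intensity, background-subtracted and detrended by Agilent Feature Extraction 9.5.3.1, per the file headers. The deposited series matrix holds the same intensity values (540216 compared, largest relative difference 0).

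Control spots (1639 of each array) were left out, spots of a probe were averaged on the log2 scale of the deposited intensity, and each array's 75th percentile was subtracted. RefSeq names (GRCm38.p6) came through the design's accessions for 22951 probes (systematic name) and 131 more (other accessions), leaving 18092 under the design's own name. A single limma fit (limma 3.58.1, R 4.3.3, statmod 1.5.0) over all 12 arrays and 26592 probes had 3 groups and 9 residual degrees of freedom, two-sided tests and Benjamini-Hochberg adjustment. It was tested on simulated data for AAV-hGRB against AAV-GFP (26592 probes, 5 draws, 6.6 false calls per draw). The number of arrays limits the precision. Permutation tests ran in scipy 1.17.1, and figures in matplotlib 3.10.9.

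The rule for named genes took all members, fixed pathway genes of 3 lists, and the 3 genes of highest r with Cyp7a1, Cyp8b1 and Nr0b2, of which 1 is not reported here. Members and lists were chosen with earlier results of these data known. The labels do not say that the same replicate number pairs samples, and the fit used no pairing. Between arrays of the same number, correlations of deviations from group means ran between -0.43 and 0.59. Arrays of different numbers were not compared in this way, so these values cannot settle whether samples are paired. The alternatives were other scalings, background correction, filters, blocks, array weights and leaving out each array.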

Additional observations from a re-analysis of the deposited data

How the results depend on the processing

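The 24 changes of members were recomputed under 23 alternatives, 12 of which leave out 1 array. Of 552 values 512 kept their sign, 40 turned it, and 0 passed the threshold (lowest adjusted p 0.26). Several alternatives cannot move an estimate, so part of the 512 kept their sign by construction. These are the leave-out of an array outside the comparison, the other filters and the replicate block. The fit of only the groups compared and the series matrix values are such alternatives too. The count of 512 is therefore no measure of how stable the signs are. The sign turns belong to 14 changes that were not past the threshold in the first place, and the cause was not tested.

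In AAV-hGRB against AAV-GFP, normexp background correction gave -0.04 for Cyp7a1 and -0.03 for Cyp8b1, and array weights gave -0.29 for Cyp7a1, -0.23 for Cyp8b1 and -0.20 for Slc10a1. In AAV-GFP against PBS, the slide as a block gave 0.03 for Cyp27a1, and for Baat quantile normalization gave -0.01 and the mean of all probes of a gene -0.01. In AAV-hGRB against PBS, the slide block gave 0.17 for Cyp8b1, -0.08 for Cyp7b1 and 0.23 for Slc10a1, normexp gave -0.08 for Cyp27a1, and array weights gave -0.23 for Cyp27a1 and -0.04 for Cyp7b1.

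With single replicates left out, changes in AAV-hGRB against AAV-GFP ran between -0.19 and 0.38 for Cyp7a1, -0.27 and 0.50 for Cyp8b1, -0.65 and 0.00 for Cyp7b1, -0.37 and 0.41 for Slc10a1, and -0.07 and 0.37 for Nr0b2. In AAV-GFP against PBS they ran between -0.42 and 0.06 for Cyp27a1, -0.06 and 0.14 for Baat, and -0.73 and 0.05 for Slc10a1. In AAV-hGRB against PBS they ran between -0.18 and 0.28 for Cyp27a1, -0.01 and 0.59 for Cyp7b1, -0.39 and 0.12 for Nr0b2, and -0.25 and 0.04 for Nr1h4.

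Array weights, which give less weight to arrays that stand apart, called 67 probes in AAV-hGRB against PBS, 56 higher and 11 lower, where the equal-weight fit called 0, and no member was among them. With the replicate number as a block 0 probes passed in each comparison, with 884, 459 and 1604 at an unadjusted p under 0.05. Correlations that turned their sign were Nr0b2 with Cyp7a1 (0.08 with slide means removed), Nr0b2 with Cyp8b1 (-0.04 with group means removed and -0.62 without the 2 farthest arrays) and Nr1h4 with Nr0b2 (0.15 without the 2 farthest arrays). Without AAV-GFP replicate 3 alone, Nr0b2 with Cyp8b1 also turned, to -0.47, and Nr1h4 with Nr0b2 to 0.34. The probes of all members were well above background on all 12 arrays. Whether the low signal of AAV-GFP replicate 3 has a part in the values it moves was not tested.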
